A study of Mus musculus with 18 samples.

Results

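Transcripts of the insulin-like growth factor (IGF) family were followed in ES/PA6 co-cultures and in PA6 stromal cells grown alone. The family was taken by gene symbol: the ligands IGF1 and IGF2, the receptors IGF1R and IGF2R, and the binding proteins IGFBP2, IGFBP3, IGFBP4, IGFBP5, IGFBP6 and IGFBP7. Every array probe that carried one of these 10 symbols was read, which gave 23 of the 45281 probes. Of these, 18 passed the filter on dim probes (3 or more of the 18 arrays with a detection p under 0.05), against 22987 probes of the whole array, and all 10 genes were among the 16446 genes tested.

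IGF1 and IGF2 are secreted ligands that activate IGF1R, a receptor tyrosine kinase that signals through PI3K and AKT. IGF2R has no kinase and carries IGF2 to the lysosome. The binding proteins hold IGFs outside the cell and can withhold or deliver them. IGFBP6 prefers IGF2, and IGFBP7 binds IGFs only weakly. Stromal cells and fibroblasts are well-known sources of these secreted proteins.

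The study asked how FGF2 and BMP4 direct murine embryonic stem (ES) cells toward endothelium on PA6 cells, a stromal line. ES cells grown on a PA6 monolayer are called ES/PA6 co-cultures, and PA6 cells without ES cells PA6 mono-cultures. Both were kept for 3 days in serum-free medium that held no growth factor (-GFs), 20 ng/ml FGF2 or 10 ng/ml BMP4, which gave 6 groups of 3 replicates. The doses are those of the sample labels, whereas the study's methods, written for slide cultures, name less BMP4. The ES cells came from 1 knock-in line that carries a fluorescent reporter under the τ promoter, kept on embryonic fibroblast feeders before the co-culture, and the PA6 cells were 1 line. For each biological replicate the labels describe 1 well per condition. The medium given in the study's methods contained insulin in every condition, -GFs included.

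All 9 ES cell markers examined were detected on all 3 arrays of each co-culture group, while 7 of them were detected on none of the 3 PA6 arrays in -GFs medium. The exceptions there were POU5F1, detected on 3 of the 3 arrays, and DPPA5A, detected on 1. All 15 stromal fibroblast markers were detected in the PA6 mono-cultures in -GFs medium. Their summed normalized intensity ran from 149729 to 169146 there and from 53216 to 79343 in the ES/PA6 co-cultures in -GFs medium. The RNA of a co-culture is a mixture, and fewer cells of a type cannot be told apart from less RNA per cell. Between 17125 and 20412 probes were detected per array. Levels below are log2 normalized intensities of the probe that stands for the gene, from 3 arrays in the order of replicates 1, 2 and 3, and levels of different genes are not compared. To be called, a gene needed a log2 fold change beyond 1 in either direction and a p below 0.1 after Benjamini-Hochberg adjustment, in 1 limma fit over all 18 arrays. Every adjusted p below is from that fit unless another is named. Errors of fold changes are standard errors (SE) from a spread pooled over all 6 groups, including groups in which a gene was not detected.

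**Figure D1:**
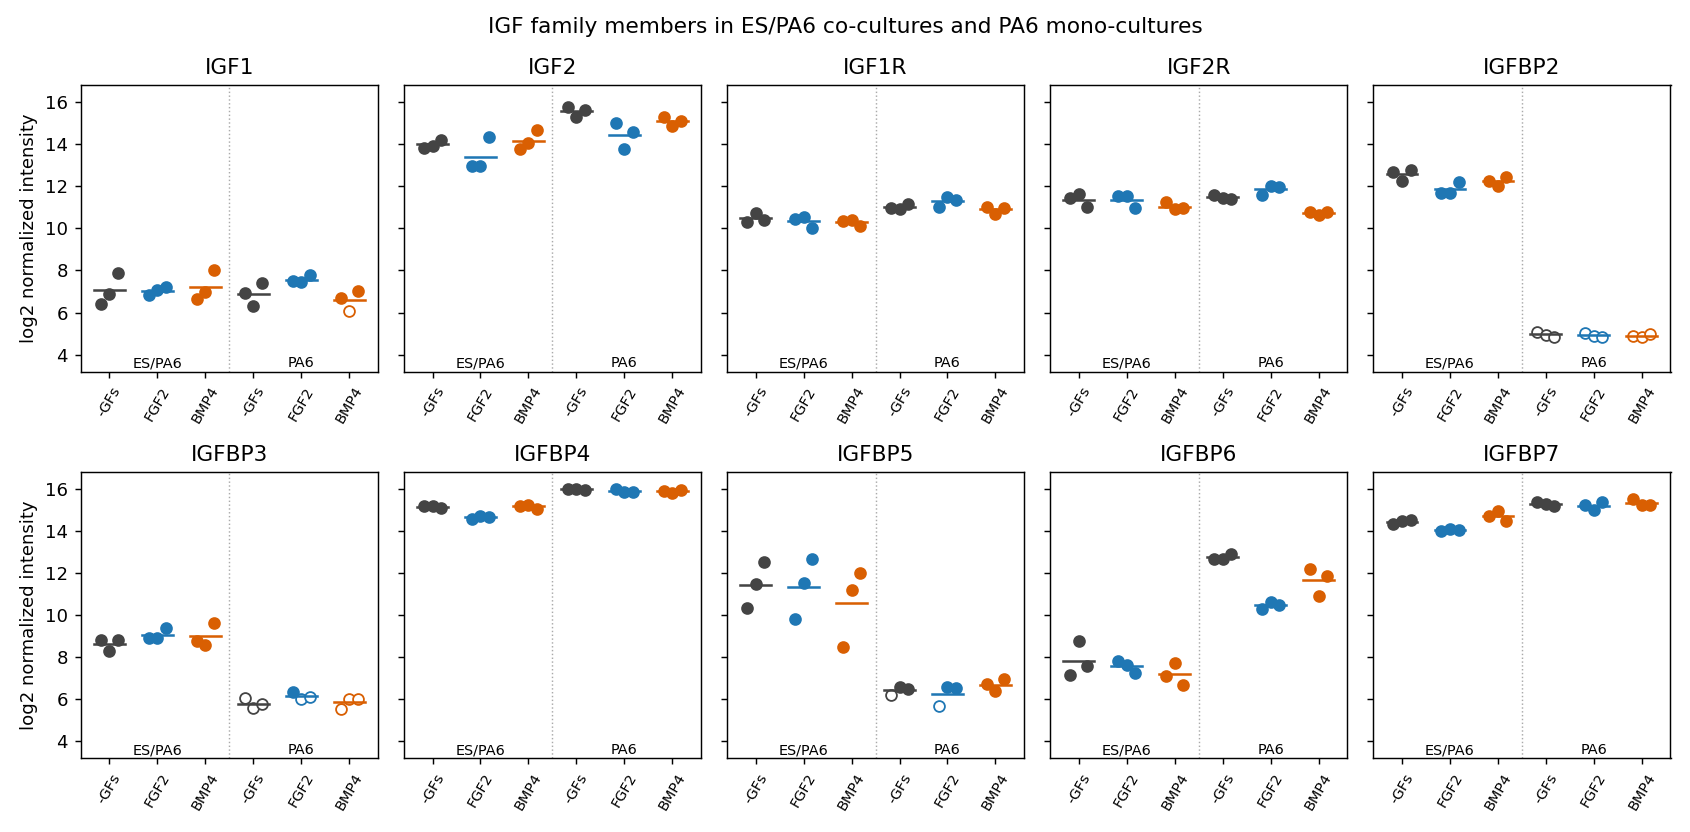
Log2 normalized intensity (y axis) of the 10 IGF family members in the 6 groups of 3 arrays (x axis), with 1 point per array, a line at each group mean, and open points where the probe was not detected. IGFBP2 was detected on 9 of 9 co-culture arrays and on 0 of 9 PA6 arrays, and IGFBP6 lay between 12.64 and 12.88 in PA6 cells in -GFs medium and between 6.70 and 8.75 in the co-cultures.

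Culture types were compared first. In -GFs medium, IGFBP2, IGFBP3 and IGFBP5 were higher in ES/PA6 co-cultures than in PA6 mono-cultures, and IGF2 and IGFBP6 were lower. These 5 of the 10 members (50%) were called, in a comparison in which 39% of all genes were called (19.4% higher and 19.5% lower). Without the fold threshold 8 members passed, against 71.2% of all genes, so both shares of members lay near those of the whole array. The median log2 change was -0.33 over the members and -0.11 over all genes.

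Among the ligands, IGF1 read 6.42, 6.88 and 7.89 in the co-cultures and 6.95, 6.29 and 7.39 in PA6 cells. The groups overlapped, and the difference of 0.18 ± 0.385 (SE) was not called (adjusted p = 0.693). IGF2, the fetal ligand encoded by an imprinted gene, read 13.82, 13.92 and 14.21 in the co-cultures and 15.75, 15.28 and 15.63 in PA6 cells. Every PA6 array lay above every co-culture array, with a log2 difference of -1.57 ± 0.352 (adjusted p = 0.000883), or 2.97-fold. Stromal marker levels moved the same way, with 11 of the 15 called lower in the co-cultures and a median log2 change of -1.58 (-1.39 with undetected genes at their bound), and the part of cell composition in the IGF2 difference was not tested.

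Neither receptor was called. IGF1R, the signaling receptor, read 10.30, 10.72 and 10.41 in the co-cultures and 10.96, 10.91 and 11.15 in PA6 cells, which did not overlap. Its log2 difference of -0.53 ± 0.172 had an adjusted p of 0.0122 but stayed below the fold threshold, and its other kept probe gave -0.29. IGF2R differed by -0.12 ± 0.181 (95% interval -0.51 to 0.26), and its groups overlapped.

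IGFBP2 gave the widest contrast of the family. The co-cultures read 12.67, 12.26 and 12.77 in -GFs medium, and neither of its probes was detected on any of the 9 PA6 arrays. With the detection limit in place of the PA6 level, IGFBP2 was at least 77.2-fold higher in the co-cultures (adjusted p = 3.21e-15), and its other probe gave at least 56.8-fold. IGFBP3, the main IGF carrier of serum, read 8.82, 8.31 and 8.80 in the co-cultures and was detected on 0 of the 3 PA6 arrays in -GFs medium, which made it at least 5.08-fold higher (adjusted p = 3.48e-08). On the other PA6 arrays it was detected only once, with FGF2, at 6.33. IGFBP2 passed the filter on dim probes through co-culture arrays alone, and IGFBP3 had 9 of its 10 detections there. The p-values of both genes rest on undetected PA6 readings and do not measure the spread of a PA6 level.

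IGFBP5, a binding protein found in the extracellular matrix, read 10.32, 11.46 and 12.50 in the co-cultures and 6.21, 6.57 and 6.49 in PA6 cells. The log2 difference was 5.0 ± 0.776 (adjusted p = 2.69e-05). Its other 2 probes were detected on none of the 9 PA6 arrays, which put the co-culture levels at least 27.4-fold and 17.6-fold above them.

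IGFBP6 showed the opposite pattern. PA6 cells read 12.64, 12.68 and 12.88, and the co-cultures read 7.15, 8.75 and 7.56, where the lowest detected value of any probe lay between 5.83 and 6.39 across arrays. The log2 difference of -4.91 ± 0.368 (adjusted p = 7.35e-09) corresponds to 30.1-fold. None of the 15 stromal markers was called higher in the co-cultures, and their summed level was lower there, with ranges given above. Whether IGFBP6 differed by more than the stromal markers was not tested.

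IGFBP4 and IGFBP7 were also lower in the co-cultures, by 0.84 ± 0.0976 and 0.85 ± 0.135 on the log2 scale (adjusted p = 1.19e-06 and 3.48e-05), below the fold threshold. IGFBP4 read 15.18, 15.15 and 15.06 in the co-cultures against 15.99, 15.97 and 15.93 in PA6 cells, with no overlap. Its raw intensity reached 68805.8 in PA6 cells, where the highest value in the whole table was 72879, and its dimmer probe gave a larger log2 difference of -1.34 ± 0.187. That probe was called in a limma fit of each kept probe (adjusted p = 8.54e-06), in which 39.2% of the kept probes were called. IGFBP7 was read by 1 probe, since its other 4 probes were detected on no array.

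**Figure D2:**
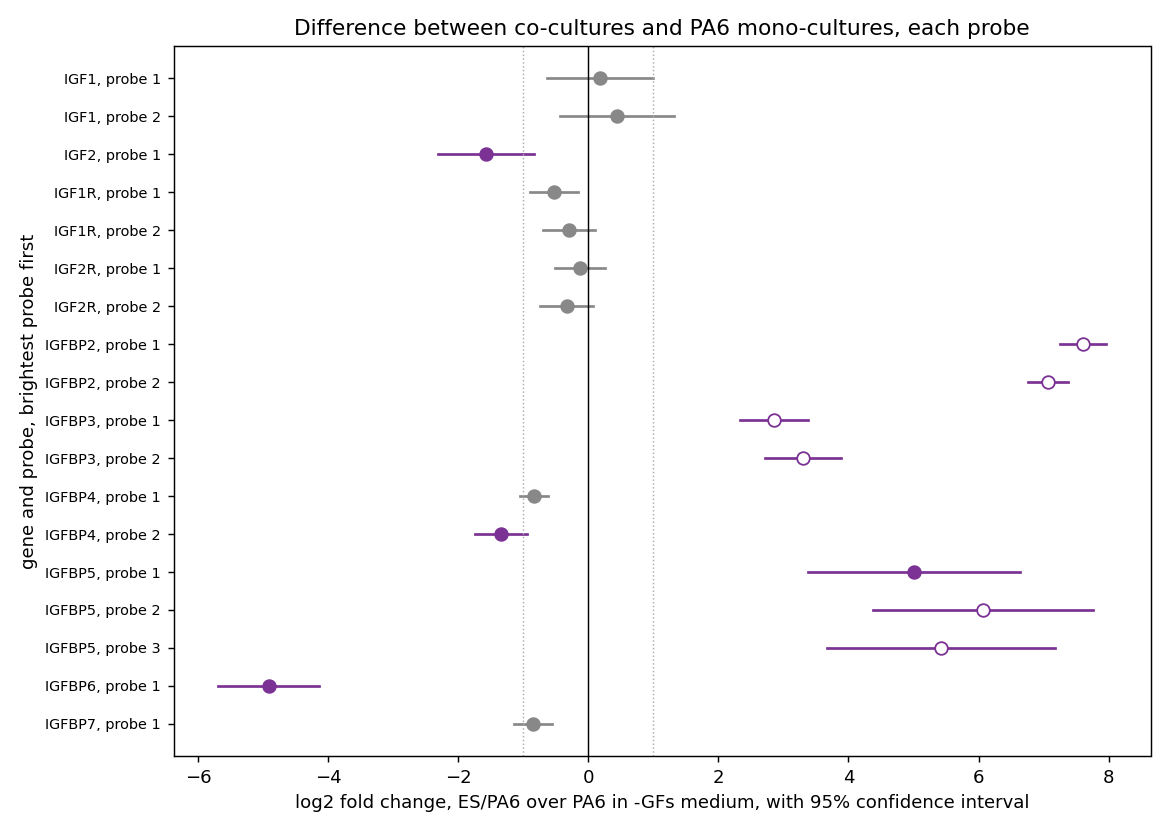
Log2 fold change of ES/PA6 co-cultures over PA6 mono-cultures in -GFs medium (x axis) for each of the 18 kept probes (y axis), with 95% confidence intervals from the limma fit of each probe. Purple marks called probes, open points mark probes detected on none of the 3 PA6 arrays (there the true change has only a lower bound), and dotted lines mark a log2 change of 1 in either direction. All probes of IGFBP2, IGFBP3 and IGFBP5 lie to the right and IGFBP6 lies at -4.91.

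The genes for IGFBP2 and IGFBP5, both higher in the co-cultures, are next to each other on mouse chromosome 1 among protein-coding genes, while IGFBP6 lies on chromosome 15. Their promoters are shown because these 3 genes mark the 2 ends of the culture-type contrast. Each run is 300 bases from RefSeq on build GRCm38.p6, 5′ to 3′ on the strand of the gene, 250 bases before the start and 50 after. Capitals mark any match, on either strand, to the letters GGGCGG of a GC box, TATAAA of a common promoter element here called the TATA box, CCAAT of the box of that name, or TGANTCA of an AP-1 motif. IGFBP2 is at chr1:72824230-72824529 on the plus strand, IGFBP5 at chr1:72874816-72875115 on the minus strand and IGFBP6 at chr15:102143936-102144235 on the plus strand.
IGFBP2: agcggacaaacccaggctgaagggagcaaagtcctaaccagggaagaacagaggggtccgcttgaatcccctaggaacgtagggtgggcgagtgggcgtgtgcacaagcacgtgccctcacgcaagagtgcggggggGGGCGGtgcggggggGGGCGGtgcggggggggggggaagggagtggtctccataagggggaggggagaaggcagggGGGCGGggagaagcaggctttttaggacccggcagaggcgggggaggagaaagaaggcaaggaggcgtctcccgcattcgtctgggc
IGFBP5: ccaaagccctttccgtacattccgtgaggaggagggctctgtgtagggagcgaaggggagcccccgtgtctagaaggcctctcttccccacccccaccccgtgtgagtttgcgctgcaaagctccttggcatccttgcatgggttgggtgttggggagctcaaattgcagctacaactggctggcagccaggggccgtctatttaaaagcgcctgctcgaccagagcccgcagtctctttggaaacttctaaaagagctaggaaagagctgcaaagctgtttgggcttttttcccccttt
IGFBP6: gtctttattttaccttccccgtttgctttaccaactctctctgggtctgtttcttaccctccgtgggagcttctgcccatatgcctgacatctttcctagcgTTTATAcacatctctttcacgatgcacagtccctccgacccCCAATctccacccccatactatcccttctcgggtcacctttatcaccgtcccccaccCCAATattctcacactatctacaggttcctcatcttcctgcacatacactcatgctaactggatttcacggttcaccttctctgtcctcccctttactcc

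The IGFBP2 promoter shown, the first of 2, held 3 GC boxes and none of the other motifs, with 67% G and C. The second, at chr1:72825137-72825436, held no GC box and 1 AP-1 motif, with 57.3% G and C. The IGFBP5 window held none of the 4 motifs. The IGFBP6 window, at 49.7% G and C, held 2 CCAAT boxes and 1 match to TATAAA, which was on the strand opposite to the gene. Only these letters were searched, at any position in the window, so a match or its absence does not settle whether a promoter has a working TATA box. In the 32851 promoters of the same length, 35.7% held a GC box, 13.6% a TATA box, 37.4% a CCAAT box and 7.81% an AP-1 motif, and the median G and C content was 52.7%. A match describes letters in this window and no binding was measured here. All 10 members had a promoter in that set, 14 in all since IGF2 has 4 and IGFBP2 has 2.

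Upon FGF2 stimulation of PA6 mono-cultures, IGFBP6 and IGF2 fell. These were 2 of the 10 members (20%), against 5.27% of all genes called (2.56% lower), and the median log2 change was -0.07 over the members and -0.01 over all genes. IGFBP6, the binding protein that prefers IGF2, went from 12.64, 12.68 and 12.88 in -GFs medium to 10.30, 10.63 and 10.47 with FGF2. All 3 FGF2 arrays lay below all 3 control arrays, and the log2 change of -2.27 ± 0.368 (adjusted p = 0.000466) corresponds to 4.81-fold. It was called under all 18 alternative settings, with adjusted p from 1.12e-05 to 0.00294.

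IGF2 and IGFBP6 were each read by 1 probe. The raw intensity of the IGF2 probe reached 58628.8 in PA6 cells in -GFs medium, against a highest value of 72879 in the whole table. IGF2 read 15.00, 13.75 and 14.57 with FGF2, below the 15.28 to 15.75 of the control arrays, without overlap. The log2 change was -1.12 ± 0.352 (adjusted p = 0.0437), or 2.17-fold. The call was lost when -GFs replicate 1 (-1.02), -GFs replicate 3 (-1.08) or FGF2 replicate 2 (-0.77) was left out, and with all alternatives the adjusted p ran from 0.00181 to 0.221. In the same arrays 3 of the 15 stromal markers were called lower with FGF2 and 4 of the 7 tested adipocyte markers too, with summed adipocyte marker levels of 1824 to 1968 against 10469 to 13670 in -GFs medium. Their part in the IGF2 and IGFBP6 changes was not tested.

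IGF1 read 7.48, 7.45 and 7.77 in PA6 cells with FGF2 against 6.95, 6.29 and 7.39 without, with no overlap. The log2 difference of 0.69 ± 0.385 was not called (adjusted p = 0.288). Its other kept probe did pass when each probe was tested, at 1.19 ± 0.414 (adjusted p = 0.0679), among 5.33% of all kept probes called, so the probes of IGF1 disagree on the call. IGF1R and IGF2R differed by 0.29 and 0.36, and IGFBP4, IGFBP5 and IGFBP7 by -0.09, -0.16 and -0.11, none of them called.

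Upon BMP4 stimulation of PA6 mono-cultures no member was called, against 1.41% of all genes. This comparison shares its -GFs arrays with that of FGF2. At an unadjusted p under 0.05 there were 2 of the 10, against 12.6% of all genes. The first was IGF2R, the receptor that clears IGF2, which read 10.78, 10.65 and 10.77 with BMP4 against 11.59, 11.45 and 11.38 in -GFs medium. The groups did not overlap, and the log2 difference of -0.74 ± 0.181 had an adjusted p of 0.041 but stayed below the fold threshold. In limma fits under the alternative settings the adjusted p ran from 0.0112 to 0.153. The other IGF2R probe was also lower with BMP4, with group means of 9.95 against 10.86. Of all genes 3.84% had an adjusted p under 0.1. The second was IGFBP6, at 12.19, 10.92 and 11.84 with BMP4, also below all control arrays. Its log2 difference of -1.09 ± 0.368 was past the fold threshold but not the adjusted p (0.171). It was called in 4 of 18 alternative settings, with adjusted p from 0.0383 to 0.561, among them the fit with replicate numbers as a block (0.0678). Without BMP4 replicate 2 it was -0.72 (adjusted p = 0.561). Summed adipocyte marker levels were 27060 to 59862 with BMP4 in these cells, and their part in the IGFBP6 values was not tested.

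Between the growth factors in PA6 cells, IGF2R was higher with FGF2 and IGFBP6 was lower with FGF2 than with BMP4. These were 2 of 10 members, against 5.82% of all genes (2.88% higher and 2.94% lower). IGF2R read 11.57, 11.99 and 11.96 with FGF2, all above the 10.65 to 10.78 with BMP4, and the log2 difference of 1.10 ± 0.181 (adjusted p = 0.000455) was called under all 18 alternatives. Its other probe gave 1.16 ± 0.192. IGFBP6 differed by -1.18 ± 0.368 (adjusted p = 0.0401), and this call was lost without FGF2 replicate 1 (-1.10), BMP4 replicate 1 (-0.91) or BMP4 replicate 3 (-1.09). IGF1 was 0.99 ± 0.385 higher with FGF2 (adjusted p = 0.103), just short of both thresholds, and its other probe differed by 1.25 ± 0.414 (adjusted p = 0.0543 in the fit of each probe, which called 5.69% of them).

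**Figure D3:**
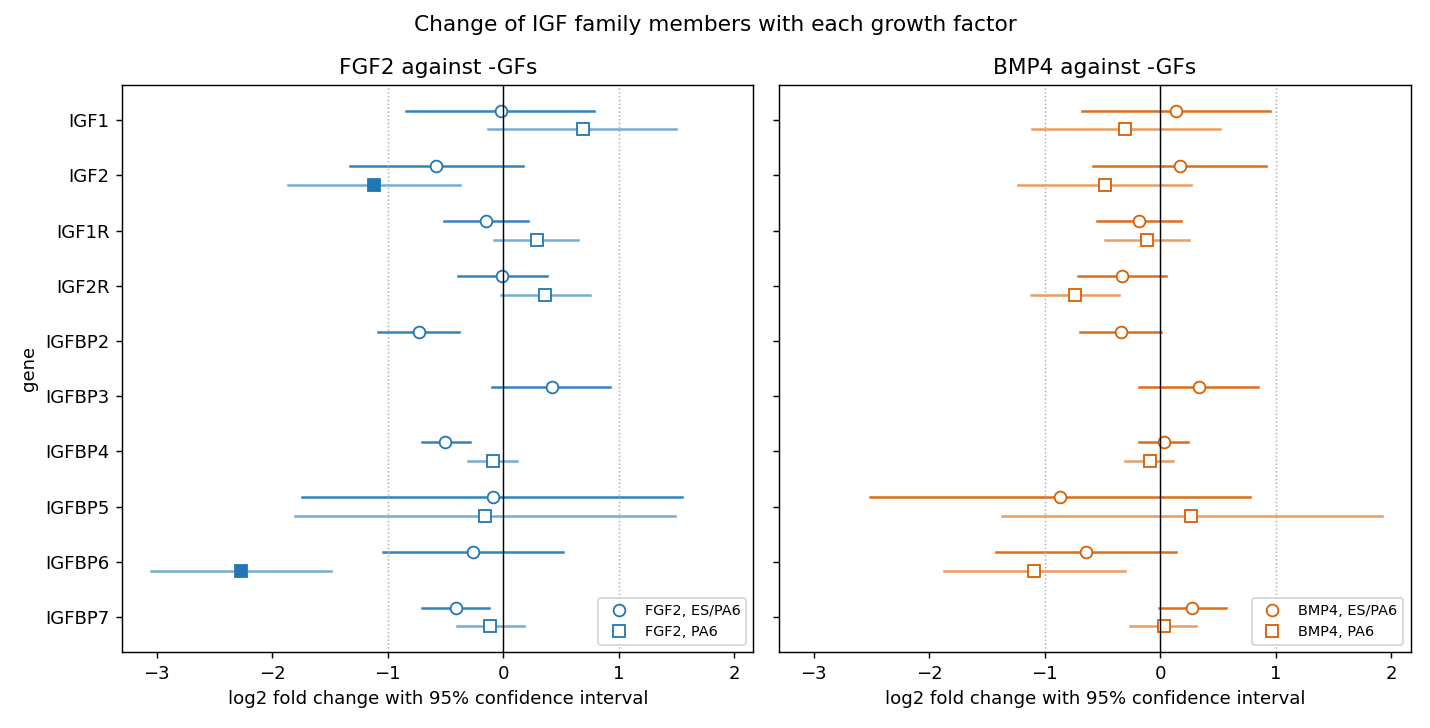
Log2 fold change (x axis) of each IGF family member (y axis) with FGF2 (left) and BMP4 (right) against -GFs medium, with 95% confidence intervals from the limma fit. Circles stand for ES/PA6 co-cultures and squares for PA6 mono-cultures, filled symbols were called, dotted lines mark a log2 change of 1, and IGFBP2 and IGFBP3 are left out for PA6 cells, where they were detected on 0 and 1 of 9 arrays. The only filled symbols are IGF2 at -1.12 and IGFBP6 at -2.27, both for FGF2 in PA6 cells.

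In the ES/PA6 co-cultures no member was called with FGF2, against 3.34% of all genes. At an unadjusted p under 0.05 there were 3 of the 10 members, against 17.8% of all genes, and the same 3 had an adjusted p under 0.1, against 9.05%. All 3 were binding proteins with lower levels, IGFBP2, IGFBP4 and IGFBP7. In limma fits under the alternative settings their adjusted p reached 0.102, 0.0632 and 0.264. Of the 10 members 9 had a negative difference, but those of IGF2R (-0.01), IGF1 (-0.02) and IGFBP5 (-0.09) were smaller than their SE. The share of all genes with a negative difference was not counted. The median log2 change was -0.20 over the members and -0.01 over all genes.

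IGFBP2 read 11.68, 11.66 and 12.18 with FGF2 against 12.67, 12.26 and 12.77 in -GFs medium, with no overlap, and differed by -0.73 ± 0.164 (adjusted p = 0.0123). Its SD was 0.27, 0.29 and 0.22 in co-cultures with no factor, FGF2 and BMP4. In the PA6 groups, where it was undetected, the SD was 0.067 to 0.11. The pooled error therefore understates the co-culture spread. The other IGFBP2 probe gave -0.36 ± 0.148 with overlapping groups. ES cell markers were mixed in these arrays: of 9, NANOG, ZFP42 and ESRRB were called higher with FGF2 and LIN28A lower (-1.63, adjusted p = 2.34e-05), and UTF1 differed by -0.73 (adjusted p = 0.00509). Their summed level was 111188 to 127018 with FGF2 and 76571 to 102290 without, and their part in the IGFBP2 difference was not tested. IGFBP4 read 14.56, 14.70 and 14.63 with FGF2 against 15.18, 15.15 and 15.06, a difference of -0.50 ± 0.0976 (adjusted p = 0.00527), and its other probe gave -0.68 ± 0.187.

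IGFBP7 read 13.97, 14.06 and 14.03 against 14.32, 14.47 and 14.50, a difference of -0.41 ± 0.135 (adjusted p = 0.0911). Neither IGFBP4 nor IGFBP7 overlapped between the groups. The summed stromal markers ran from 49791 to 57678 in the FGF2 co-cultures and from 53216 to 79343 in -GFs medium, so that the ranges overlap. The stromal markers had a median log2 change of -0.41 with 2 of 15 called lower, and their part in these differences was not tested. IGF2 read 12.93, 12.96 and 14.31 with FGF2 against 13.82, 13.92 and 14.21, and the third FGF2 array stood apart. Its difference was -0.58 ± 0.352 (adjusted p = 0.444), and -1.04 without that array, which was called (adjusted p = 0.0605). IGFBP3 was the 1 member with a positive difference, at 8.93, 8.89 and 9.36 with FGF2 against 8.82, 8.31 and 8.80. These groups did not overlap, but the difference of 0.42 ± 0.244 was not called (adjusted p = 0.424) and its other probe gave -0.13. The receptors differed by -0.15 (IGF1R) and -0.01 (IGF2R).

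With BMP4 in the co-cultures no member was called either, against 0.76% of all genes, and 0 of 10 members had an unadjusted p under 0.05, against 10.9%. The 10 differences ran from -0.87 for IGFBP5 to 0.34 for IGFBP3. Against BMP4, FGF2 co-cultures again had no called member (2.85% of all genes were called), and 4 members had an unadjusted p under 0.05, against 17.4% of all genes. Of these, IGFBP4 was 0.53 ± 0.0976 lower with FGF2 (adjusted p = 0.00457) and IGFBP7 0.69 ± 0.135 lower (adjusted p = 0.00633), with IGFBP7 at 14.72, 14.93 and 14.48 under BMP4. These 2 had an adjusted p under 0.1, against 7.48% of all genes. IGF2 and IGFBP2 were the others, with adjusted p of 0.283 and 0.221. The IGF2 difference of -0.75 ± 0.352 became -1.21 without FGF2 replicate 3, which was called (adjusted p = 0.0353), and with replicate numbers as a block its adjusted p was 0.0319, below the fold threshold.

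An interaction term tested whether the FGF2 change differed between ES/PA6 and PA6 cultures. IGFBP6 was the 1 member of 10 called, against 7.39% of all genes (3.99% in that direction). Its FGF2 change was -0.26 ± 0.368 in the co-cultures and -2.27 ± 0.368 in PA6 cells, a difference of 2.01 ± 0.521 (adjusted p = 0.0218). In the co-cultures IGFBP6 read 7.80, 7.65 and 7.23 with FGF2 against 7.15, 8.75 and 7.56, on a scale whose added offset of 16 compresses changes of dim genes. IGFBP2 and IGFBP4 differed by -0.69 ± 0.233 and -0.41 ± 0.138 (adjusted p = 0.0735 and 0.0772), below the fold threshold, so that 3 members had an adjusted p under 0.1, against 15% of all genes. IGFBP2 was not detected in the PA6 arm of that contrast. In limma fits under the alternative settings the adjusted p reached 0.167 for IGFBP2 and 0.257 for IGFBP4. In the same contrast 3 of the 7 tested adipocyte markers were called higher, LPL (2.55), CFD (3.21) and CIDEC (3.64), with a list median of 2.28. So were 2 of the 15 stromal markers, POSTN (1.29) and LOX (1.03), with a list median of 0.02. Their part in the IGFBP6 value was not tested. CIDEC was detected on 0 of 3 FGF2 arrays in both culture types, so its value rests on undetected FGF2 levels. The fit of each probe called 7.43% of the probes, the dimmer IGF1 probe among them (-1.61, adjusted p = 0.0985). For BMP4 no member was called as differing between culture types, against 0.559% of all genes, and 0 of 10 had an unadjusted p under 0.05, against 9.74%.

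IGFBP5 varied more between replicates of 1 co-culture group than any growth factor moved its mean. In -GFs medium it read 10.32, 11.46 and 12.50, with FGF2 9.82, 11.50 and 12.68, and with BMP4 8.48, 11.19 and 12.00. Replicate 1 was the lowest and replicate 3 the highest in all 3 groups. The same order held at its other 2 probes. The SD within a group was 1.09, 1.44 and 1.84 (n = 3 each), against 0.0636 to 0.0991 for the bright IGFBP4 probe and 0.216 to 0.285 for its dimmer probe in the same groups. The BMP4 difference of -0.87 ± 0.776 became 0.17 without BMP4 replicate 1, and with the replicate number as a block its adjusted p was 0.109 (0.814 without the block). The SE of 0.776 pools these groups with the dim PA6 groups and so understates the spread within a co-culture group. For a growth factor difference it also counts the offsets shared by same-numbered arrays as error, which the block takes out.

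**Figure D4:**
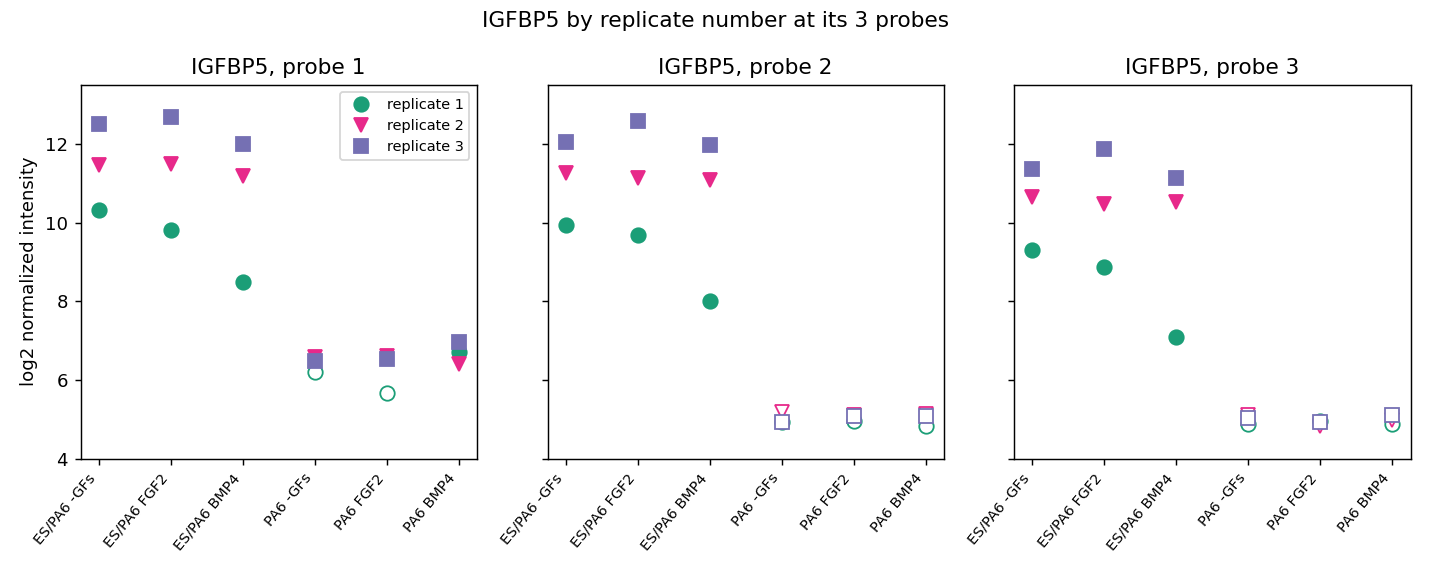
Log2 normalized intensity (y axis) of IGFBP5 at its 3 probes in the 6 groups (x axis), with a symbol for each replicate number and open symbols where the probe was not detected. In the 3 co-culture groups replicate 1 is lowest and replicate 3 highest at each probe, and probes 2 and 3 were detected on 0 of 9 PA6 arrays.

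Other genes of the pathway were taken from lists of carriers, adaptors, kinases, proteases and imprinted genes. Among other ligands and carriers, 2 of 5 genes were tested, and IGFBP1, INS1 and INS2 did not pass the filter. IGFALS, the partner of the circulating IGFBP3 complex, was lower in PA6 cells with FGF2, where it was detected on none of the 3 arrays, by at least 1.39-fold against -GFs medium (adjusted p = 0.00206) and at least 2.58-fold against BMP4 (adjusted p = 1.95e-05). IGFBPL1, an IGFBP-like secreted protein, was called higher in the co-cultures, by at least 1.09-fold.

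Of 8 tested receptors and adaptors, 1 was called lower with FGF2 in PA6 cells and 1 higher with BMP4, where 5.27% and 1.41% of all genes were called. GAB1, a docking protein, fell by 1.06 with FGF2 (adjusted p = 6.08e-05), and SH2B2, an adaptor of the insulin receptor, rose by 1.03 with BMP4 (adjusted p = 0.00901), from detection on 1 of 3 arrays to 3 of 3. The insulin receptor INSR was called in no comparison, but its probe was dim, with group means from 5.72 to 6.52. It was detected on at most 2 of the 3 arrays of a group, so a change could be missed. Between culture types the adaptor GRB10 was 1.18 higher and GRB14 was lower in the co-cultures (-2.33). Of the 14 tested genes of the PI3K, AKT and FOXO arm, 1 was called with FGF2 in PA6 cells, the regulatory subunit PIK3R1 (-1.01, adjusted p = 0.00125), and none with a growth factor in the co-cultures. Between culture types 2 were called higher and 4 lower, where 39% of all genes were called, among them the catalytic subunits PIK3CB (2.11) and PIK3CA (-1.97).

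The proteases that cleave binding proteins, and their inhibitors, moved in both directions in PA6 cells. Of 7 tested, 2 rose and 1 fell with FGF2, where 5.27% of all genes were called (2.56% lower). PAPPA, which cleaves IGFBP4, rose by 1.21 ± 0.226 (adjusted p = 0.00145) and the protease ADAMTS1 by 1.99 ± 0.226 (adjusted p = 1.62e-05). STC1, a secreted inhibitor of PAPPA, was not detected with FGF2 and was at least 2.29-fold lower than in -GFs medium (adjusted p = 0.000708). With BMP4, where 1.41% of all genes were called, 2 rose and none fell, STC1 by 2.02 ± 0.332 (adjusted p = 0.00339) and the metalloprotease ADAM12 by 1.60 ± 0.301 (adjusted p = 0.00887). In the co-cultures, where 3.34% of all genes were called with FGF2, 1 was called, the serine protease HTRA1, which rose by 1.50 ± 0.233 (adjusted p = 0.000865), and none with BMP4. The median log2 change of these 7 genes in PA6 cells was -0.05 with FGF2 and 0.67 with BMP4 (0.42 with undetected genes at their bound), against -0.01 and 0.01 over all genes.

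Of 11 tested imprinted growth genes, 6 were higher and 2 lower in the co-cultures than in PA6 cells in -GFs medium, with a median log2 change of 3.92 (2.55 with undetected genes at their bound) against -0.11 over all genes. Of all genes 19.4% were called higher and 19.5% lower. NDN and CDKN1C, which restrain growth, were at least 74.7-fold and 65-fold higher, and MEST was 4.36 higher on the log2 scale. NDN, CDKN1C and others of the 6 were detected on no PA6 array in any medium. Those genes passed the filter on dim probes through co-culture arrays alone, and their calls rest on undetected PA6 readings. The 2 that were lower were DLK1 (-1.46) and GNAS (-1.10). H19, the noncoding neighbor of IGF2, was lower in PA6 cells with BMP4 by a log2 change of -2.40 ± 0.461 (adjusted p = 0.00972), while IGF2 there differed by -0.48 ± 0.352 (adjusted p = 0.681). Of the 3 IGF2 mRNA-binding proteins, IGF2BP1 was called, 2.70 higher in the co-cultures, and none was called with a growth factor.

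After the mean of each culture type was removed, IGF2 ran most like ARHGAP18 (Pearson r = 0.922), ZFP496 (0.888) and PRELP (0.88) over the 18 arrays. The nearest to IGF2R were CCL7 (0.92), JUN (0.904) and ANKRD37 (0.898), and the nearest to IGFBP6 were D330027H18RIK (0.905), SNX21 (0.894) and DHRS9 (0.874). Within the family the highest value was that of IGFBP4 and IGFBP7 (0.805), then IGF1R and IGF2R (0.721), and the lowest was that of IGFBP3 and IGFBP6 (-0.666). The points share arrays and 6 group means, and the values describe these arrays only.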

How the data were processed

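Total RNA was hybridized to bead arrays (Illumina MouseWG-6 v2.0). The authors read the arrays and exported bead summaries, and the submitters' processing notes name GenomeStudio 2011.01. The deposited values are non-normalized intensity on a linear scale, from 55.5 to 72879, each with a deposited detection p-value, and 5 stray lines were left out. No counts lie behind them, so the number of arrays limits the precision, and with 3 arrays against 3 a permutation test cannot go below p = 0.1.

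Background correction, normalization and log2 transformation were done with neqc in limma 3.58.1 (R 4.3.3), with an offset of 16 and negative controls inferred from the detection p. The methods of the study name a cubic spline, which was run as an alternative. The probe with the largest mean stood for a gene, as in the study's methods. A gene undetected on all 3 arrays of a group is given as "at least", against the higher of each array's lowest detected value and its own. A single limma fit of 6 group means gave all comparisons, and the code was tested on simulated data. P-values measure the spread between these wells and cover no other lines. Genes carry the names the array table gives, except DPPA5A and LIN28A, which it lists as DPPA5 and LIN28. Coordinates come from the RefSeq promoter set, and the order of neighboring genes from RefSeq gene records.

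The members and gene lists were chosen with earlier results of these data known. All members are described, and a list gene is named only where called, at most 4 per list and comparison, except IGFBP1, INS1, INS2 and INSR, named as not tested or not called. Genes most like a member were the 3 with the highest Pearson r, for members called with a growth factor. Each kept probe was also tested on its own, which was chosen after seeing the data. Same-numbered ES/PA6 arrays deviated together (9 of 9 correlations, 0.325 to 0.521), so the numbers pair them. In PA6 mono-cultures 8 of 9 correlations were over 0.1 (0.0628 to 0.164).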

Additional observations from a re-analysis of the deposited data

Results flagged for a closer look

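The log2 change of IGFBP6 with FGF2 differed between the culture types. The difference of its FGF2 change, ES/PA6 co-cultures minus PA6 mono-cultures, was 2.01 on the log2 scale (limma adjusted p = 0.0218), and it was called under all 23 alternative settings, with adjusted p from 0.0021 to 0.0547. It fell on 3 of 3 FGF2 arrays of PA6 cells, while its co-culture levels, 6.70 to 8.75, overlapped between media. In the same contrast 3 of 7 tested adipocyte markers (list median 2.28) and 2 of 15 stromal markers (list median 0.02) were also called higher. Their part was not tested, and the adipocyte marker CIDEC was undetected on the FGF2 arrays of both culture types. Each group had 3 arrays, too few to test for single arrays that stand apart.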

How the results depend on the processing

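Of 27 single values, refitted 494 times under the alternatives, 464 refits kept their direction and their side of the threshold, 6 lost the call, 22 gained it and 2 turned in sign. The remaining 63 values, none of them called, were also called in none of 1190 refits of the probe that stands for the gene or of the mean of its probes, and 63 of these refits turned in sign. Separate tests of each probe, given above for IGF1 and IGFBP4, are not among these refits. The turned values were IGFBP5 with BMP4 in the co-cultures, from -1.59 to 0.17 when single arrays were left out (0.17 without BMP4 replicate 1), and IGFBP6 with FGF2 in the co-cultures, from -0.60 to 0.21 (0.21 without -GFs replicate 2). Neither was called in any refit. Each of these refits kept the same-numbered arrays of the other groups. Between same-numbered arrays the IGFBP5 differences were all negative (-1.83, -0.27 and -0.50).

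The count of called members with BMP4 in PA6 cells rose from 0 to 1, IGFBP6, without background correction by quantile or cubic spline normalization, with only the mono-culture arrays in the fit, and with replicate numbers as a block inside each culture type. The paired fit with that block changed no other count. Without a fold change threshold it was also 1, IGF2R, and the other counts were 3 for FGF2 in the co-cultures, 2 for FGF2 against BMP4 there, 8 between culture types and 3 for the difference of the FGF2 effect. With detection required on all 18 arrays, which leaves out IGF1, IGFBP2, IGFBP3 and IGFBP5, 2 members (IGF2 and IGFBP6) were called between culture types. With each probe tested separately, the difference of the FGF2 effect had 2 called members, IGFBP6 and IGF1, the latter at -1.61 (adjusted p = 0.0985). Leaving out single arrays gave 0 to 1 called members for FGF2 in the co-cultures and for FGF2 against BMP4 there (IGF2 without FGF2 replicate 3 in both), and 1 to 2 for FGF2 and for FGF2 against BMP4 in PA6 cells. Median scaling took IGFBP4 (-1.13) and IGFBP7 (-1.20) past the fold threshold between culture types, and averaging probes did so for IGFBP4 (-1.09) and for IGF1 between FGF2 and BMP4 in PA6 cells (1.12). The cause of these changes was not tested, apart from genes left out by a filter. The median of all genes differed between culture types by -0.11, and by -0.07 to -0.10 under the other normalizations. Signal over background limits IGF1, detected on 17 of 18 arrays, and IGFBP2, IGFBP3 and IGFBP5 in PA6 cells, detected on 0, 1 and 7 of 9.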
